A study of Macaca mulatta with 8 samples.

Results

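Axonemal dyneins are the motors of motile cilia, and most of the genes described here encode those motors or the scaffold they pull on. The members were taken by name: symbols of the deposited feature list beginning with DNAH or DNAI (dynein axonemal heavy and intermediate chains), CFAP (cilia and flagella associated proteins), SPAG (sperm associated antigens) or SPEF (sperm flagellar proteins) followed by a number, together with HYDIN and ADGB. The rule gave 52 of the 21748 genes in the matrix and used no measured value. By known role, they comprise 9 heavy chains, 2 intermediate chains, 11 central pair proteins, 7 tether, spoke or regulatory proteins, 7 proteins of the inside of the axonemal doublets, 3 dynein assembly factors, ADGB, 7 other CFAP genes and 5 SPAG genes with roles outside the axoneme. Another 21 genes whose symbols would meet the rule in a newer symbol table are listed in the matrix under other names and were kept apart from the members.

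Male rhesus macaques (Macaca mulatta) supplied frozen brain, from which single nuclei were profiled; the tissue is given as hippocampus in the sample characteristics although the growth protocol speaks of amygdala. Droplet libraries of the 10x Genomics 3′ version 3 chemistry were made, and reads were counted as unique molecular identifiers (UMIs), each standing for 1 captured RNA molecule. The Ctrl group is a pool of 2 male macaques divided into 4 samples, and the SEV group is 1 male macaque divided into 4 samples. The animal of the SEV group inhaled the anaesthetic sevoflurane at about 2.5 to 3% for 4 hours on 3 occasions, the first near postnatal day 7 and the others given as 14 and 28 days. The 4 samples of a group are therefore divisions of 1 pool, and the SEV group holds a single animal.

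All 8 libraries are joined in 1 matrix, and the number that ends each barcode is not tied to a sample by the labels. Libraries are therefore called 1 to 8 by that number, no comparison of SEV with Ctrl was made, and no test or p-value is given for any difference below. Motile cilia beat because dynein arms on the outer doublet microtubules pull on the neighbouring doublet, while the central pair and the radial spokes set which arms are active. In the brain, ependymal cells line the ventricles and carry tufts of such cilia, which move the cerebrospinal fluid. Most other brain cells carry at most a single primary cilium, which lacks axonemal dynein and the central pair.

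The matrix held 59749 barcodes and 331133661 UMIs, with 35806547 to 47007082 UMIs per library. Libraries 1 to 4 and 5 to 8 stood apart: the median was 3189 to 3426 UMIs per nucleus in libraries 1 to 4 and 5730 to 5831 in libraries 5 to 8. The 1529 barcodes that failed the depth filter all came from libraries 5 to 8. Across libraries, 429 barcode sequences occurred in more than 1 library, which involved 860 nuclei and at most 3 libraries for a sequence. After the filter and the removal of 3576 doublets, 54644 nuclei remained, of which 2611 stayed unnamed and the others fell into 11 classes by marker genes. The classes were 19290 excitatory, 7056 inhibitory and 2103 immature neurons, 7701 astrocytes, 5933 oligodendrocytes, 1299 newly formed oligodendrocytes, 3636 oligodendrocyte precursors, 2958 microglia or macrophages, 470 fibroblasts or mural cells, 399 endothelial cells and 1188 ependymal nuclei. Each name means that the cluster resembled the type by its markers. The members and the other genes of the cilium pathways were left out of the genes used to cluster.

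The ependymal-like class was 1 cluster of 1188 nuclei, 2.17% of the nuclei used. It had 62 to 347 nuclei per library, or 0.809% to 3.89%, with the larger numbers in libraries 3 and 4. All 10 of its matched markers reached 10 CPM (UMIs of the gene per 1000000 UMIs of the class) and 9 were higher there than in any other class. FOXJ1, the transcription factor that switches on the motile cilium programme, stood at 65.8 CPM, and the ciliary genes ARMC3 and ZBBX at 1015 and 872 CPM. The summed level of the 10 markers was 5094 CPM, from 4631 to 5787 over libraries. Markers of other cell types were also measured there. Of 9 choroid plexus markers 3 reached 10 CPM, with a summed level of 131 CPM (62.4 to 191 over libraries) and FOLR1 at 0. Of 10 astrocyte markers 9 reached 10 CPM, with a summed level of 2692 CPM (1838 to 2904). All 9 oligodendrocyte markers reached 10 CPM, with a summed level of 771 CPM that ranged from 98.8 to 1216 CPM over libraries. The part of RNA from these cell types in the values of this class was not tested.

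Summed over the 52 members, ependymal-like nuclei had 33372 CPM, so that 3.34% of their UMIs came from these genes. The sum ran from 32137 to 34288 CPM over the 8 libraries, with a median of 32980. In all neurons together the same sum was 1605 CPM and in the other non-neuronal classes together 1317 CPM, and no class other than ependymal exceeded 1847 CPM, the level of immature neurons. The lowest class was newly formed oligodendrocytes at 1023 CPM. The library ranges of the ependymal sum and of every other class did not overlap.

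The difference was also seen nucleus by nucleus. A median of 80 UMIs per ependymal-like nucleus came from members, 3.21% of its UMIs, with the 5th and 95th percentiles at 2.10% and 4.25%. Every one of the 1188 nuclei had at least 1 member UMI. When each nucleus was thinned to 1000 UMIs, which left out 35 shallower ependymal-like nuclei, the median was 32 member UMIs from 18 different members. Other named nuclei thinned in the same way had a median of 1 member UMI, and 24.5% of them had none. No nucleus of another class reached the 2.10% that marks the 5th percentile of the ependymal-like class, whereas 21 of the 3576 barcodes removed as doublets did.

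**Figure D1:**
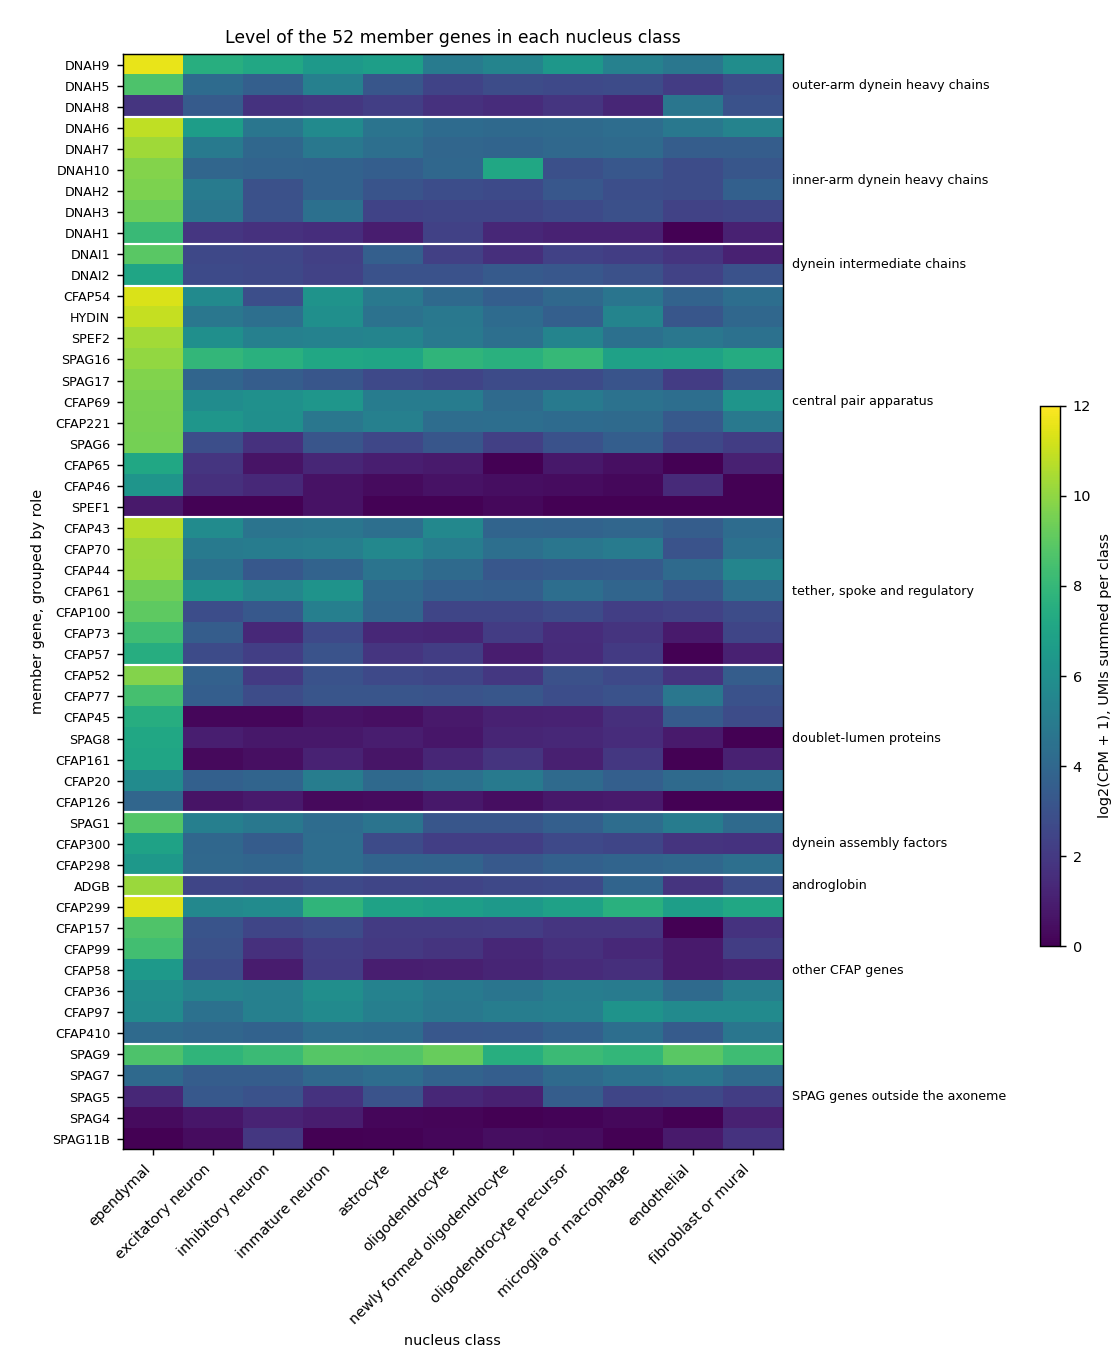
Level of each of the 52 members (rows, grouped by role) in each of the 11 nucleus classes (columns), as log2(CPM + 1) of UMIs summed per class. The ependymal column is the brightest for 43 of the 49 members that reached 10 CPM in any class, while SPAG9, SPAG16 and CFAP299 show colour in every column.

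Of the 52 members, 49 reached 10 CPM in at least 1 class, and SPEF1, SPAG4 and SPAG11B did not. Among these 49, 43 were highest in ependymal-like nuclei and 6 in another class. For 34 members the ependymal level was at least 10-fold that of the next class, and for 41 it was at least 2-fold. Outside the ependymal class, 37 members reached 10 CPM in 1 or more of the 10 other classes and 13 did so in all of them, whereas 12 reached it in the ependymal class alone. Levels are compared within a gene and not between genes, because gene lengths of the annotation were not used here.

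The first comparison set ependymal-like nuclei against all other named nuclei. Of these 50845 nuclei, 28449 were neurons, with a median of 7419 UMIs against 2317 in the other non-neuronal nuclei. Neurons therefore weigh most in the summed level, and a ratio to it can exceed the lead over a single class. A gene was called where the ratio of the summed levels was at least 2-fold, the higher side had at least 10 CPM, and no library that had 50 or more nuclei on both sides, here all 8, went the other way. Under this rule 17.1% of the 10621 genes that reached 10 CPM on either side were called higher in ependymal-like nuclei and 15.2% lower. Of the 47 members that reached the minimum, 42 were called higher and none lower. Their median log2 ratio was 5.19, against 0.11 over all genes that reached it. As 19 of the 47 passed only through the ependymal side, they could only be higher or uncalled: of the 28 that reached 10 CPM on both sides, 24 were called higher. The counts by role below have the same limit. CFAP126, CFAP410, CFAP36, SPAG7 and SPAG9 were not called, and DNAH8, SPEF1, SPAG4, SPAG5 and SPAG11B were under the minimum on both sides. In what follows, the interval after a fold is the exact 95% interval for counting error only.

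Among the outer-arm heavy chains, DNAH9, which works in the distal part of respiratory cilia, had 2581, 2912 and 3362 CPM (lowest, median and highest library) in ependymal-like nuclei. Summed, this was 3132 CPM against 151 CPM in the other named nuclei, a 20.7-fold difference (20.3 to 21.2). The 4 values of libraries 1 to 4, from 3114 to 3362 CPM, all lay above those of libraries 5 to 8, from 2581 to 2710 CPM. DNAH5, the other heavy chain of ciliary outer arms, had 405 against 14.4 CPM, 28.1-fold (26.5 to 29.8). It ranged from 358 to 505 CPM over libraries, and the library sets overlapped. DNAH8, known mainly from sperm, stood apart from both: its ependymal level was 2.57 CPM. Its highest class was endothelial at 24.9 CPM, which rested on 30 UMIs and ranged from 0 to 85.6 CPM over the 3 libraries with at least 50 endothelial nuclei.

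All 6 inner-arm heavy chains were called higher in ependymal-like nuclei, against 17.1% of all genes. DNAH1 reached the minimum only on the ependymal side. DNAH6 had 1714, 1881 and 1972 CPM there and 1869 CPM summed, against 72.0 CPM elsewhere, 26.0-fold (25.3 to 26.7). DNAH7 had 1248 against 24.6 CPM, 50.7-fold, and DNAH3 had 645 against 18.8 CPM, 34.3-fold. These are single-headed inner-arm motors, and their ependymal levels overlapped between the library sets. DNAH1, another of this kind whose loss in men leads to malformed sperm flagella, had the largest ratio of the heavy chains among the members: 282 against 2.48 CPM, 114-fold (103 to 125). It ranged from 201 to 273 CPM in libraries 1 to 4 and from 369 to 412 CPM in libraries 5 to 8, which do not overlap.

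DNAH2 and DNAH10 form the 2-headed inner arm. DNAH2 had 801 against 22.3 CPM, 35.8-fold (34.3 to 37.4), and its libraries also fell into 2 sets, with 689 to 749 CPM in libraries 1 to 4 and 987 to 1295 CPM in libraries 5 to 8. DNAH10 had 883 against 15.9 CPM, 55.4-fold (53.0 to 58.0), with 816 to 919 CPM over libraries and no such split. Of the member heavy chains highest in ependymal-like nuclei, DNAH10 had the smallest lead over its next class. That class was newly formed oligodendrocytes, at 141 CPM (131 to 151), 6.27-fold below the ependymal level. There DNAH10 ranged from 112 to 165 CPM over the 4 libraries with enough nuclei. DNAH9 and DNAH6 had 182 and 100 CPM in their next class, excitatory neurons, 17.2-fold and 18.6-fold below their ependymal levels. The outer-arm intermediate chains, which anchor the heavy chains, were both called: DNAI1 at 479 against 5.17 CPM, 92.7-fold, and DNAI2 at 132 against 5.75 CPM, 22.9-fold.

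The central pair is the most heavily represented structure among the members. Its 10 members that reached the minimum were all called higher in ependymal-like nuclei, against 17.1% of all genes. Some of them, such as SPAG6 and CFAP46, reached it only on the ependymal side and could only be higher or uncalled. HYDIN, a very large central pair protein whose loss in mice causes hydrocephalus, had 1845, 2020 and 2237 CPM over libraries. Its summed level was 1978 CPM against 25.0 CPM, 79.1-fold (76.6 to 81.7). The next class after ependymal was immature neurons at 62.7 CPM, and endothelial nuclei were lowest at 8.29 CPM. CFAP54, which belongs to a projection of the central pair, had 2225, 2555 and 2851 CPM over libraries and 2545 against 39.7 CPM summed, 64.1-fold (62.4 to 65.9). SPEF2, a projection protein needed for cilia and sperm tails, had 1280 against 52.4 CPM, 24.4-fold.

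Among other central pair proteins, the ratio was 120-fold for SPAG6 (714 against 5.94 CPM), 72.9-fold for SPAG17 (851 against 11.7 CPM) and 44.3-fold for CFAP46 (76.3 against 1.72 CPM). SPAG16, a partner of SPAG6, differed from them in that every class expressed it. Its ependymal level of 1055 CPM was only 4.67-fold (4.52 to 4.82) that of the other named nuclei together. The lowest class, microglia or macrophages, still had 115 CPM. SPEF1, which bundles the central microtubules, was at 0.771 CPM in ependymal-like nuclei, the equivalent of 3 UMIs. This was under the minimum for a call, and the cause of the low level was not tested.

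Tether, spoke and regulatory proteins were all called, 7 of 7, against 17.1% of all genes. Some of them, such as CFAP73, reached the minimum only on the ependymal side and could only be higher or uncalled. CFAP43, which ties inner arms to the doublet, had 1534, 1645 and 1742 CPM over libraries and 1688 against 43.5 CPM summed, 38.8-fold (37.6 to 39.98). Its partner CFAP44 had 1143 against 17.8 CPM, 64.2-fold. CFAP61, a protein at the base of the radial spokes, had 682 against 55.1 CPM, 12.4-fold. CFAP73, part of the complex that regulates the inner arms, had 323 against 7.44 CPM, 43.5-fold. Its library sets did not overlap either, with 164 to 260 CPM in libraries 1 to 4 and 541 to 646 CPM in libraries 5 to 8.

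Of the 7 proteins of the doublet interior 6 were called, against 17.1% of all genes. Among the called, CFAP45, CFAP161, SPAG8 and CFAP52 reached the minimum only on the ependymal side and could only be higher or uncalled. Of all members, CFAP45 and CFAP161 had the largest ratios to the other named nuclei together. CFAP45 had 179 against 0.351 CPM, 511-fold (414 to 637), with 119 to 211 CPM over libraries. Its lead over the next class was much smaller. That class was endothelial, with 399 nuclei, at 9.95 CPM of CFAP45, and endothelial cluster 42, of 78 nuclei, had 21.3 CPM. CFAP161 had 132 against 0.509 CPM, 260-fold (216 to 314), SPAG8 139 against 0.954 CPM, 146-fold, and CFAP52 882 against 9.24 CPM, 95.5-fold. CFAP126 was not called: its 14.4 CPM was 24.7-fold the level elsewhere, but it was higher in 7 of 8 libraries and at 0 in library 8. CFAP20, which also has roles outside cilia, had 54.7 against 13.7 CPM, 4.00-fold.

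ADGB encodes androglobin, a globin of ciliated and sperm cells, and was among the members most restricted to the class. It had 1047, 1156 and 1434 CPM over libraries in ependymal-like nuclei and 1164 against 4.78 CPM summed, 243-fold (229 to 259). CFAP299, a gene of little known function, had 2559, 2788 and 2939 CPM over libraries and 2723 against 65.7 CPM summed, 41.4-fold (40.4 to 42.4), and the 2 library sets overlapped. The 3 assembly factors, which help build the arms in the cytoplasm, were called at 15.04-fold for SPAG1, 9.84-fold for CFAP300 and 5.64-fold for CFAP298.

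**Figure D2:**
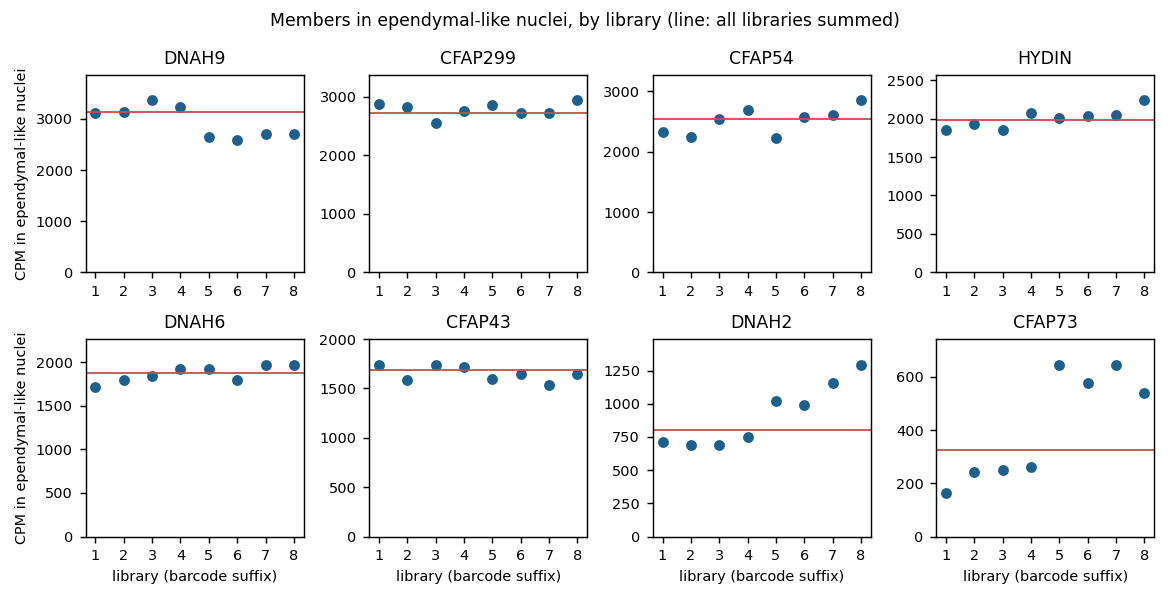
Level of 8 members in ependymal-like nuclei of each library, in CPM on axes that start at 0. Points are libraries 1 to 8 and the line is the level with all libraries summed. DNAH9 is higher in libraries 1 to 4, DNAH2 and CFAP73 are higher in libraries 5 to 8, and the other 5 genes overlap between those sets.

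The members that were not highest in ependymal-like nuclei were mostly those without a known axonemal role. SPAG9, a scaffold that links kinases and motor proteins to transported vesicles, was highest in oligodendrocytes at 586 CPM and stood at 404 CPM in ependymal-like nuclei. SPAG5, a mitotic spindle protein, was highest in oligodendrocyte precursors at 10.7 CPM. SPAG7 was highest in endothelial nuclei at 24.9 CPM, with 15.9 CPM in ependymal-like nuclei. CFAP410, which localises to the base of cilia, was highest in fibroblasts or mural cells at 24.8 CPM, with 17.0 CPM in ependymal-like nuclei. The endothelial and fibroblast or mural classes are small, with 399 and 470 nuclei, so the SPAG7 and CFAP410 peaks rest on few UMIs. CFAP97 was highest in microglia or macrophages at 71.2 CPM (63.9 to 79.1), with 55.0 CPM (47.9 to 62.9) in ependymal-like nuclei. These intervals do not overlap, but they cover counting error only. Over libraries the ependymal level of CFAP97 ran from 43.4 to 99.7 CPM, a range that includes the summed microglial level. CFAP97 was nonetheless called higher in ependymal-like nuclei than in all other named nuclei, at 2.03-fold, a value at the threshold. The call of CFAP97 ended without library 1 (log2 ratio 0.93), without library 8 (0.996), within either library set (0.99 and 0.97), with TMM scaling (0.88) and with doublets kept (0.88).

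Astrocytes share their origin with ependymal cells in the ventricular lining, and their markers were detected in the ependymal-like class. Against astrocyte-like nuclei, 12.7% of the 10457 genes measured were called higher in ependymal-like nuclei and 9.67% lower. Of the 47 members that reached the minimum, 22 of them only through the ependymal side, 41 were called higher and none lower. CFAP45 was 455-fold higher (220 to 1137), DNAH1 294-fold (183 to 507) and CFAP46 271-fold (115 to 842). These wide intervals rest on few astrocyte UMIs. ADGB differed 246-fold, CFAP161 and CFAP73 213-fold, CFAP52 169-fold, SPAG17 161-fold, DNAH3 149-fold and SPAG6 146-fold. DNAH9 and HYDIN differed less, 29.98-fold (28.5 to 31.5) and 88.6-fold (80.1 to 98.2). CFAP97 was not called against astrocytes, at 1.57-fold, and neither were CFAP126, CFAP410, CFAP36, SPAG7 and SPAG9.

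Low levels of ciliary RNA in other classes can be read only against the background that free RNA leaves in every droplet. As a measure of that background, the level in a class was expressed as a percent of the ependymal level for 9 ependymal markers that other classes should lack, and for the 47 members with at least 10 CPM in ependymal-like nuclei. CDHR3, the tenth marker, was set aside after its values were seen, since its astrocyte level was 124% of its ependymal level. In neurons the 9 markers stood at 0.133% to 3.90% of their ependymal level, with a median of 0.493%. The members stood at 0.0836% to 83.9%, with a median of 2.87%, and 20 of them lay above the highest marker. In single libraries 16 to 22 members lay above that library's highest marker.

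These 20 members included the 3 heavy chains DNAH9, DNAH6 and DNAH5, the intermediate chain DNAI2, and SPAG16, SPEF2, CFAP221, CFAP69, CFAP61, SPAG1, CFAP300 and CFAP298. For HYDIN, ADGB, CFAP54, DNAH1, DNAH2, DNAH3, DNAH7 and DNAH10 the percent in all neurons did not exceed the highest marker. That ceiling was set by VWA3A alone, which was at 36.1 CPM in excitatory neurons and 11.1 CPM in astrocytes. Whether the VWA3A level measures free RNA was not tested. By this measure the level of these members over all neurons can be neither told apart from background nor assigned to it. In the other non-neuronal classes together the markers reached 5.002%, and 9 members lay above: SPAG9, SPAG7, CFAP410, CFAP97, CFAP36, CFAP20, SPAG16, CFAP298 and DNAI2. That count depended on the library. It was 8 and 9 in libraries 3 and 4, which had the most ependymal-like nuclei, and 15 to 30 in the other 6 libraries.

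**Figure D3:**
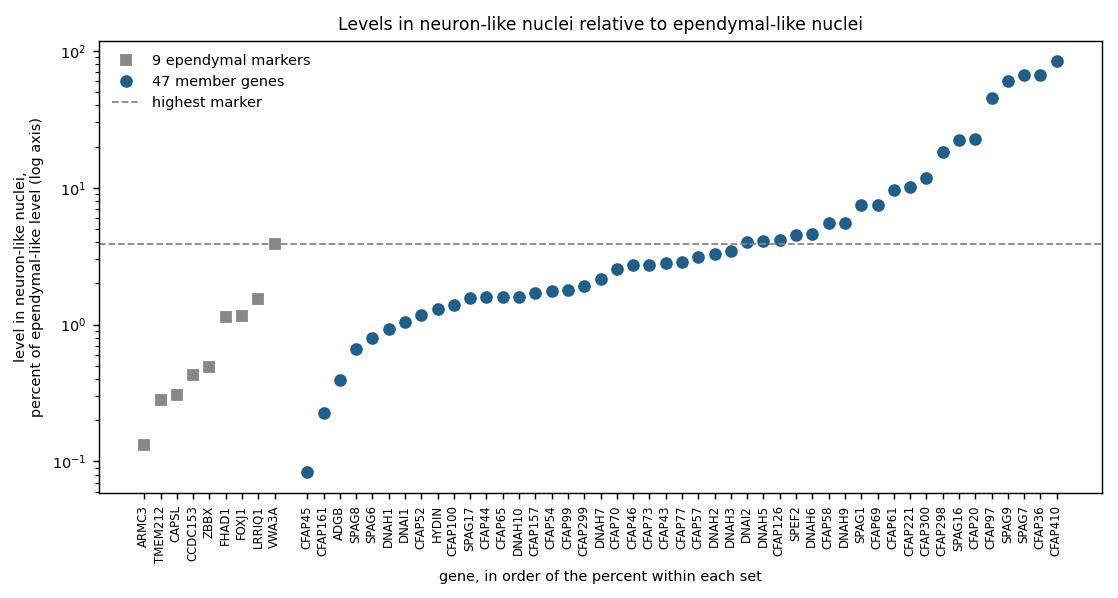
Level in neuron-like nuclei as a percent of the level in ependymal-like nuclei (log axis) for 9 ependymal markers (squares) and 47 members (circles), each in ascending order. The dashed line is the highest marker, VWA3A at 3.90%, and 20 members lie above it.

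Shares of nuclei with at least 1 UMI follow depth, which differed between classes: the median was 2468.5 UMIs in ependymal-like nuclei, 8772 in excitatory, 5543 in inhibitory and 1585 in microglial nuclei. DNAH9 was detected in 98.1% of ependymal-like nuclei and 54.0% of neurons. In nuclei thinned to 1000 UMIs the shares were 92.4% (90.7 to 93.8) and 14.0% (13.6 to 14.4), against 3.38% (2.73 to 4.14) in microglia or macrophages, a class that should lack ciliary RNA. In that class the unthinned share was 5.88%. Microglia or macrophages are not a matched background for neurons. Of their 2958 nuclei, 873 and 843 came from libraries 3 and 4, which had the most ependymal-like nuclei (3.89% and 3.52%). Thinning does not adjust for this or for free RNA at different depths, and the effect on the shares was not tested. HYDIN was detected in 80.8% of thinned ependymal-like nuclei, and its thinned share in neurons, 2.85%, was below the 3.83% of microglia. Unthinned, HYDIN was found in 95.7%, 15.7% and 6.15% of these classes. The order of neurons and microglia for HYDIN thus differed between unthinned and thinned nuclei, and no neuronal expression is read from this share. Single neuron clusters differed: HYDIN was at 69.4 CPM in cluster 24, against 41.5 CPM in microglia or macrophages.

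ADGB was found in 63.5% of thinned ependymal-like nuclei, 0.473% of neurons and 1.19% of microglia (87.3%, 3.28% and 2.03% unthinned). DNAH6 was found in 9.54% (9.12 to 9.96) of thinned excitatory neurons, 2.36% (2.02 to 2.74) of inhibitory neurons and 1.71% (1.26 to 2.28) of microglia. The unthinned shares of DNAH6 were 49.9%, 12.6% and 2.94%. CFAP54 was found in 5.19% (4.88 to 5.51) of thinned excitatory neurons, 0.724% (0.540 to 0.951) of inhibitory neurons and 2.34% (1.805 to 2.99) of microglia. Its unthinned shares were 30.6%, 3.47% and 3.79%. For both genes the excitatory share thus exceeded that of the other 2 classes, with intervals that do not overlap. The intervals take nuclei as independent and cover counting error only. Microglia or macrophages also came mostly from libraries 1 to 4, so these classes are not matched by library.

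Outside the ependymal class, neurons were next compared with the non-neuronal classes other than ependymal. Over all genes, 12.8% of 10295 were called higher in neurons and 17.6% lower, 30.4% in either direction. Of the 30 members that reached 10 CPM on either side, 7 of them only through the neurons, 10 were called higher in neurons and 1 lower. Their median log2 ratio was 0.76, against -0.20 over all genes. Of the 10, 6 were among the 23 members that reached the minimum on both sides. The 10 members were 5 heavy chains, 2 central pair proteins, the spoke protein CFAP61 and 2 assembly factors.

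DNAH3 had the largest ratio, 22.4 CPM in neurons against 4.88 CPM, 4.59-fold (4.07 to 5.19). CFAP61 followed with 65.6 against 14.7 CPM, 4.46-fold (4.17 to 4.79), and DNAH6 with 85.5 against 19.6 CPM, 4.35-fold (4.10 to 4.62). DNAH2 had 26.3 against 7.03 CPM, 3.74-fold. CFAP300 and CFAP221 differed 3.11-fold and 3.09-fold, DNAH5 2.79-fold, CFAP54 2.25-fold and SPAG1 2.23-fold. DNAH9, at 174 against 63.6 CPM, differed 2.73-fold (2.64 to 2.82). Of these, DNAH3, DNAH2 and CFAP54 did not exceed the highest marker, VWA3A, in percent of the ependymal level, as described above.

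For DNAH9 the libraries gave different ratios. Neurons had 166, 173 and 185 CPM (lowest, median and highest library), while the other non-neuronal nuclei had 50.3 to 62.2 CPM in libraries 1 to 4 and 110 to 123 CPM in libraries 5 to 8. With libraries 5 to 8 only, the log2 ratio was 0.54 and DNAH9 was not called. DNAH5, CFAP54, SPAG1 and CFAP300 also lost the call in libraries 5 to 8, at 0.89, 0.74, 0.86 and 1.02. SPAG17 (1.57) and CFAP73 (2.14) gained the call in that set. With libraries 1 to 4 only, the 10 calls were kept and 4 members were added. The composition of the non-neuronal nuclei also differed between these sets, and its part in the ratio was not tested.

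CFAP299 was the only member called lower in neurons, at 52.4 against 117 CPM, 2.24-fold (2.17 to 2.31). Neurons were lower in each of the 8 libraries, but by less than 2-fold within either library set. They had 73.1 to 89.6 CPM in libraries 1 to 4 and 26.4 to 29.9 CPM in libraries 5 to 8. Without a low-UMI astrocyte-like cluster of 3219 nuclei, mostly from libraries 5 to 8, neurons were no longer lower in every library. The log2 ratio of CFAP299 was -0.69 within libraries 1 to 4 and -0.44 within libraries 5 to 8. Among classes, it was highest after ependymal in immature neurons at 228 CPM (213 to 243), a class of 2103 nuclei of which 97.2% came from libraries 1 to 4. Microglia or macrophages had 194 CPM of CFAP299, and 17.8% of them had a UMI after thinning.

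The 4 members of highest neuronal level were followed by library. SPAG9 had 223, 245 and 276 CPM in neurons and SPAG16 had 172, 232 and 336 CPM (lowest, median and highest). For both, the 4 values of libraries 1 to 4 lay above those of libraries 5 to 8. DNAH6 showed the opposite order, with 66.0 to 79.1 CPM in libraries 1 to 4 and 93.7 to 98.0 CPM in libraries 5 to 8. DNAH9 showed little spread, from 166 to 185 CPM, although libraries 1 to 4 were again all above libraries 5 to 8. Which libraries belong to SEV is not known from the labels, and set, depth and animal cannot be told apart.

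Within neurons, 9 of the 32 members that reached 10 CPM were called higher in excitatory than in inhibitory neurons and none lower, against 6.1% and 6.39% of 9464 genes. The median log2 ratio was 0.40 for these members and -0.11 for all genes. Of the 32, 24 reached the minimum in both classes, and only 2 of these, DNAH6 and CFAP43, were called. The other 8 passed only through the excitatory side, where a call could only be higher, and they supply 7 of the 9 calls. CFAP54 had 53.3 CPM in excitatory and 6.27 CPM in inhibitory neurons, 8.49-fold (7.52 to 9.63). Its lowest excitatory library, at 42.0 CPM, was above its highest inhibitory library, at 9.92 CPM.

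DNAH6 had 100.4 against 25.2 CPM, 3.99-fold (3.75 to 4.24). Excitatory neurons had 74.4, 102 and 115 CPM of DNAH6 and inhibitory neurons 22.5, 24.5 and 29.8 CPM, with no overlap. DNAH2, with 31.2 against 6.86 CPM, differed 4.54-fold, and DNAH3, with 26.1 against 7.00 CPM, 3.72-fold. CFAP73 differed 6.77-fold at low level (10.7 against 1.58 CPM), CFAP52 3.84-fold (12.04 against 3.13 CPM), CFAP44 2.33-fold and CFAP43 2.29-fold (54.2 against 23.7 CPM). DNAH8, at 10.1 against 2.38 CPM or 4.23-fold, sat at the minimum level. It lost the call without library 5, 6, 7 or 8, although its log2 ratio stayed between 1.99 and 2.18.

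In libraries 1 to 4 only, 5 of the 9 were called, and DNAH3 and CFAP44 fell to log2 ratios of 0.51 and 0.85. DNAH3 in excitatory neurons was at 10.2 to 16.3 CPM in libraries 1 to 4 and 35.2 to 36.9 CPM in libraries 5 to 8. Members of the same structures varied. SPAG6, under the minimum in both classes, had a log2 ratio of 1.49 with no minimum level. DNAH7 was not called, but its log2 ratio was 1.06 with TMM scaling and in libraries 5 to 8 only, where it was called. Some others differed less. The ratio of excitatory to inhibitory neurons was 1.25 for DNAH9 (182 against 146 CPM), 1.32 for HYDIN, 1.25 for SPAG16 and 1.09 for DNAH10 (0.996 to 1.199). The ependymal marker VWA3A, the marker of highest percent in neurons, was itself at 36.1 CPM in excitatory and 9.36 CPM in inhibitory neurons.

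**Figure D4:**
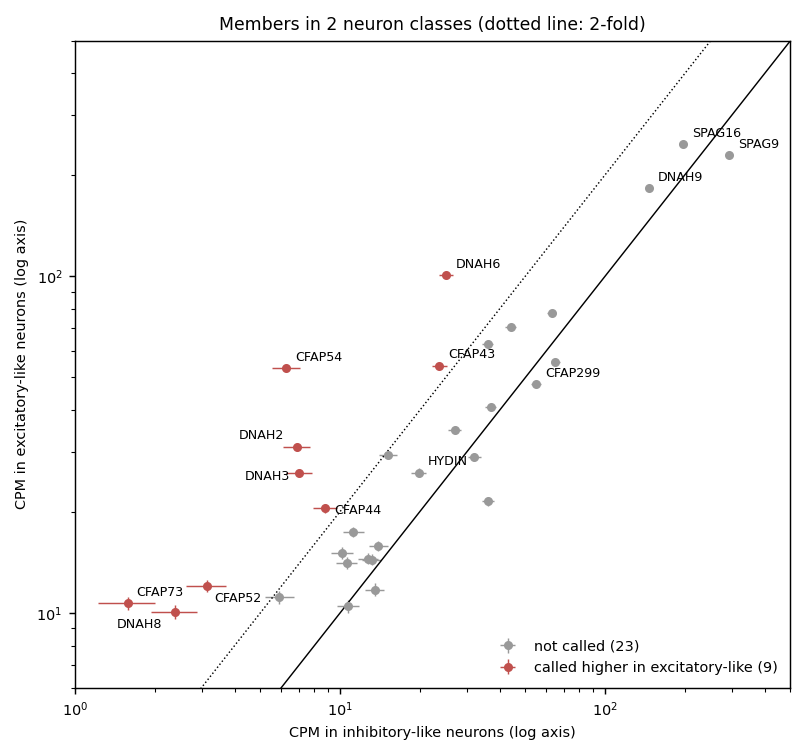
Level of the 32 members that reached 10 CPM in excitatory-like (vertical) against inhibitory-like neurons (horizontal), in CPM on log axes, with bars for the exact 95% counting interval. The 9 called members lie above the dotted 2-fold line, with CFAP54 farthest from the solid line of equal levels at a level above 50 CPM, and no member lies as far below it.

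Across the 28 neuron clusters the heavy chains had different high points. DNAH9 ranged from 38.7 CPM through a median of 120 CPM to 525 CPM in cluster 22, followed by 392 CPM in cluster 5. Clusters 5 and 22 also each had 6 of 11 markers of dentate granule cells in the highest 2 of the excitatory clusters, with summed granule marker levels of 2204 and 1544 CPM. The first came from libraries 1 to 4 and the second from libraries 5 to 8. Cluster 22 also had 1577 CPM of pyramidal cell markers. The immature neurons of cluster 6 had a similar granule marker sum, 2169 CPM, with DNAH9 at 88.0 CPM. CFAP54 was at 117, 117 and 116 CPM in clusters 14, 5 and 22 and at 4.32 to 7.69 CPM in the 7 inhibitory clusters. This level was not particular to neurons. Astrocyte cluster 33, of 475 nuclei, had 112 CPM of CFAP54, against 21.2 and 25.6 CPM in astrocyte clusters 0 and 3.

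Other members peaked elsewhere. DNAH6 was highest in cluster 28 at 319 CPM, against a median of 61.0 CPM, and the same cluster held 88.8 CPM of DNAH2 and 55.0 CPM of DNAH5, the highest for DNAH5. DNAH2 was highest in cluster 9 at 92.96 CPM. DNAH3 was highest in cluster 23 at 65.3 CPM, a cluster drawn from both library sets, and DNAH1 in cluster 40, of 110 nuclei, at 23.5 CPM. CFAP43 reached 132 CPM in cluster 30 and DNAH7 59.5 CPM in cluster 5. Of the 20 excitatory clusters, 6 came from libraries 1 to 4 by 95% or more, 12 from libraries 5 to 8 and 2 from both, so that a difference between clusters of different sets cannot be told apart from one between the library sets. Clusters of the same set also differed. DNAH9 ran from 38.7 to 392 CPM among the 6 clusters of libraries 1 to 4 and from 72.6 to 525 CPM among the 12 of libraries 5 to 8. Among those 12 clusters, DNAH6 ran from 28.4 to 319 CPM and DNAH2 from 5.04 to 92.96 CPM. The 7 inhibitory clusters each drew on both sets.

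**Figure D5:**
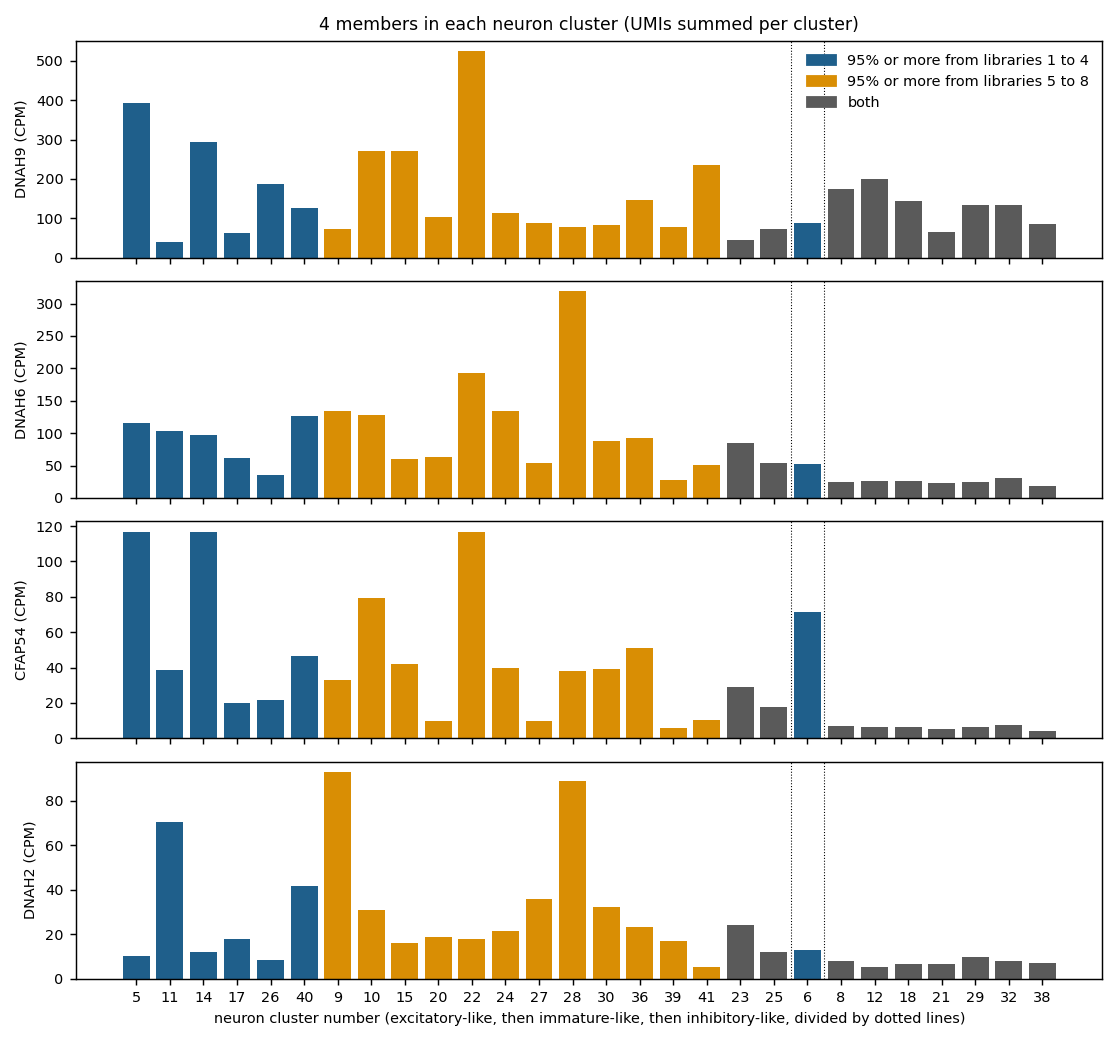
Level of DNAH9, DNAH6, CFAP54 and DNAH2 in each of the 28 neuron clusters, in CPM of UMIs summed per cluster, with colour for the libraries that supplied 95% or more of the nuclei. DNAH9 peaks in clusters 22 and 5, DNAH6 in cluster 28 and DNAH2 in clusters 9 and 28, and CFAP54 is low in every inhibitory cluster (the 7 bars on the right).

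The rest of the motile cilium machinery followed the members in the ependymal class. Over all genes that reached the minimum, 17.1% were called higher there and 15.2% lower. A gene that reached the minimum only on the ependymal side could only be higher or uncalled. The number of such genes in each list is not given here. Of the docking and regulatory complex genes, 11 of 11 that reached the minimum were called higher than in other named nuclei, among them DRC7 (362-fold), ARMC4 (133-fold) and DRC3 (65.6-fold). The radial spoke list gave 9 of 9, led by ROPN1L (54.4-fold), IQUB (36.8-fold) and RSPH1 (22.4-fold), and the tektins and other microtubule proteins 16 of 17, led by TEKT4 (176-fold), TEKT3 (88.3-fold) and RIBC2 (74.6-fold). Assembly factors were called in 9 of 12 cases, with DNAAF1 at 71.8-fold, DNAAF3 at 44.4-fold and ZMYND10 at 31.2-fold. The light chains and renamed intermediate chains were called in 7 of 8, with DNAI3 (listed as WDR63) at 214-fold, DNALI1 at 77.5-fold and DYNLRB2 at 39.8-fold. DNAH12, an inner-arm heavy chain listed by identifier only, had 1027 against 3.30 CPM, 311-fold.

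Genes shared with the primary cilium moved less, and those of cytoplasmic dynein did not follow. Intraflagellar transport, which carries parts into any cilium, gave 22 of 28 called higher, led by TTC30A (13.8-fold), IFT27 (13.6-fold) and IFT46 (10.2-fold). The primary cilium and transition zone list gave 13 of 24 higher, among them TMEM67 (6.71-fold) and RPGRIP1L (5.82-fold), with BBS7 lower by 2.29-fold. Of 17 genes of cytoplasmic dynein 1 and dynactin, which transport cargo along cell body microtubules, only DYNLT1 was higher (2.28-fold), while DYNC1I1, ACTR1A and DYNC1I2 were lower by 6.98-fold, 2.63-fold and 2.54-fold. The median log2 ratio was -0.04 for that list and 2.08 for intraflagellar transport, against 0.11 for all genes. Of 7 transcription factors of the motile cilium programme 5 were higher, led by GMNC (222-fold), MYB (42.7-fold) and RFX2 (25.6-fold). RFX4 was higher than in all other nuclei together but 2.75-fold lower than in astrocytes.

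In neurons, fewer genes of these lists were called higher than in the other non-neuronal classes. The counts were 4 of 9 for docking and regulatory proteins, 3 of 7 for tektins and 2 of 26 for intraflagellar transport. A gene that reached the minimum only in neurons, such as CCDC65, could only be higher or uncalled. How many such genes each list holds is not given here, so these counts are not read as enrichment. Over all genes 12.8% were called higher and 17.6% lower, so the count for intraflagellar transport lay below that share. CCDC65, a subunit of the regulatory complex, had 40.8 CPM in neurons against 4.99 CPM in the other non-neuronal classes, 8.18-fold. TEKT5 (4.29-fold), the assembly factor LRRC6 (4.12-fold) and the spoke protein DNAJB13 (4.03-fold) were also called, while TTC12 (8.75-fold) and IQUB (5.05-fold) were lower in neurons. Of 16 cytoplasmic dynein and dynactin genes, DYNC1I1 was higher in neurons (5.36-fold) and DYNLL1 (3.71-fold) and DYNLL2 (2.85-fold) were lower. The primary cilium list gave 4 of 25 higher, near the share over all genes, and 2 lower. Between neuron classes, DNAJB13 (3.87-fold), CCDC65 (3.55-fold), RSPH1 (3.45-fold) and RFX3 (3.07-fold) were higher in excitatory neurons, and PKD2, a channel of the primary cilium, was 2.36-fold lower.

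The pattern most like that of HYDIN was sought over the 43 clusters, as Pearson's correlation of log2(CPM + 1) among 12582 genes. The clusters share libraries and free RNA, so the values describe and carry no test. Outside the members, the likest genes were CFAP206 (0.84, listed by identifier only), KATNAL2 (0.82), CATIP (0.81), SPATA17 (0.81) and C4H6orf118 (0.81). Among members, DNAH7 (0.83) and CFAP54 (0.79) were close to HYDIN, while SPAG5 (-0.23) and DNAH8 (-0.16) were not.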

How the data were processed

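The deposited data are 1 gene-by-barcode matrix of UMI counts; per the file header the authors made it with Cell Ranger 3.1.0. The submitters' processing notes also name CASAVA 1.8 and Seurat, without roles. The genome build, the annotation and whether intronic reads were counted were not given in the sources used here.

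Barcodes under 500 UMIs or 300 genes were left out, and 4.18% to 7.75% per library were removed as simulated-doublet neighbours. Counts were scaled to 10000 per nucleus and logged. The 2000 most variable genes, without members and pathway genes, gave 30 principal components. Leiden clustering (leidenalg 0.10.2, Python 3.11.15) at resolution 1.0, with no correction between libraries, gave 43 clusters, named from marker lists. UMIs were summed per class and given as CPM with exact Poisson 95% intervals, ratios with exact conditional binomial intervals, and shares with Clopper-Pearson intervals; these cover counting error only. Nuclei are not replicates, and the matrix counts as 1 sample, so edgeR and other tests were not run. Scripts were tested on simulated data.

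Named are every DNAH and DNAI member with at least 10 CPM in any class, HYDIN, ADGB, SPEF1 and SPEF2, the 8 other called members of largest fold and the 4 of highest level per comparison, members highest outside the ependymal class, and up to 3 called genes per pathway list; CFAP20, CFAP126, CFAP298, DNAH12 and VWA3A and the genes described as not called were chosen after their values were seen. Members and lists were chosen with earlier results of these data known. Also settled after seeing the data: the naming of a low-UMI astrocyte-like cluster of 3219 nuclei, mostly from libraries 5 to 8, the requirement that a cycling cluster show its own marker among 10 leading genes, and the setting aside of CDHR3. Alternatives were TMM scaling, other minimum levels, Leiden resolutions 0.5 and 2.0, doublets kept, at least 1000 genes per nucleus, removal of 5% free RNA, thinning to 2000 UMIs, equal library weights and each library left out. Those without the low-UMI astrocyte cluster and with libraries 1 to 4 or 5 to 8 alone were added after seeing the data. No sequence is shown, since sequences of the members were not used here. Not every called gene of the pathway lists is reported here.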

Additional observations from a re-analysis of the deposited data

Results flagged for a closer look

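Within the ependymal-like class, a few members had 1 library far from the other 7, by a gap larger than Dixon's 95% critical value of 0.526 of the range. This was looked for in 106 sets of 8 libraries, and chance alone gives about 1 in 20, so that the 5 found are no more than chance gives. CFAP97 stood at 99.7 CPM in library 1, where the next library had 62.4 CPM and the median was 51.5 CPM. CFAP46 stood at 109 CPM in library 8 against a median of 76.3 CPM, and CFAP61 at 853 CPM in library 8 against a median of 681 CPM. The log2 ratio of ependymal-like to all other named nuclei was 6.66 for HYDIN in library 8, against a median of 6.30, and 4.96 for CFAP73 in library 1, against a median of 5.84.

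A signal also appeared in nuclei that no comparison used. CFAP299 had 520 CPM (490 at the lower bound of the 95% interval) in cluster 13, an unnamed cluster of 1573 nuclei with a median of 957 UMIs and TTR as its first leading gene. The highest level of CFAP299 in a named class other than ependymal was 228 CPM, in immature neurons.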

How the results depend on the processing

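No ratio of summed levels reversed its direction under any alternative. Against all other named nuclei, 41 to 42 members were higher when a library was left out and 0 lower, and with no minimum level 1 member, SPAG5, was lower. Against astrocytes the ranges were 41 to 42 and 0. In neurons against other non-neuronal nuclei, 10 to 12 members were higher and 1 lower when a library was left out, and 18 were higher and 2 lower with no minimum level. The count lower, CFAP299 alone, fell to 0 with TMM scaling, with equal library weights, without the low-UMI astrocyte cluster, with libraries 1 to 4 only and with libraries 5 to 8 only. Its log2 ratio was then -0.98, -0.71, -1.27, -0.69 and -0.44. The ratio of -1.27 is past 2-fold, so this call ended because neurons were not lower in every 1 of the 8 libraries compared. Between neuron classes, 8 to 10 members were higher and 0 lower when a library was left out, and 5 were higher with libraries 1 to 4 only. The cause of these changes was not tested. Members above every marker in the other non-neuronal classes numbered 9 with all libraries and 15, 18, 19, 30, 26 and 29 in libraries 1, 2, 5, 6, 7 and 8 alone, where 7 or 8 markers could be used.

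TMM scaling moved the median log2 ratio of all genes by -0.14 against other named nuclei, 0.19 for neurons against other non-neuronal nuclei and 0.10 between neuron classes. The split of all genes into higher and lower then changed from 1814 and 1612 to 1613 and 1819, from 1314 and 1813 to 1617 and 1495, and from 577 and 605 to 657 and 528. Of the values of single genes under all alternatives, 2808 kept their call, 34 lost it, 24 gained it and 23 values without a call moved beyond their spread. No paired analysis was possible because the barcodes are not tied to the numbered samples of the Ctrl and SEV groups; comparisons between classes set both sides against each other within each library through the rule for a call. The members above every marker in neurons numbered 16 to 22 in single libraries. SPEF1, SPAG4 and SPAG11B stayed under 10 CPM in every class, and the cause was not tested. Depth limits classes with few nuclei per library.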
